A study of Mus musculus with 6 samples.

Results

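Integrins and laminins are the receptors and ligands by which heart cells hold on to the basement membrane. The genes described here are all rows of the count table whose symbol starts with Itga or Itgb, leaving out the integrin-binding proteins Itgb1bp and Itgb3bp, together with the Lama, Lamb and Lamc genes. These were 39 of 46095 genes, 28 integrin and 11 laminin rows, and 34 of the 39 had enough reads to be tested. Hearts were compared by RNA sequencing between STAT3cKO mice, whose cardiomyocytes lack the transcription factor STAT3, and wild-type mice (titled NC), with 3 heart samples of each genotype. The series asked which pathways tied to heart function differ in these mice. The labels describe no treatment, age, sex or strain, do not name the Cre line or whether wild-type mice carried floxed alleles, and do not state that each sample came from a separate mouse, so p-values measure sample-to-sample spread that may be only technical.

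An integrin is a pair of membrane proteins, an α and a β chain, that binds matrix outside the cell and, through talin and other adaptors, the actin skeleton inside it. A laminin is a cross-shaped trimer of an α, a β and a γ chain that polymerises into the sheet of a basement membrane. In heart, the laminin α2 chain is typical of the membrane around cardiomyocytes and α4 and α5 chains of that around vessels, and the β1 integrin paired with α7 is the main laminin receptor of the adult cardiomyocyte. Several other integrin chains mark other cells of the tissue, such as leukocytes, endothelium or smooth muscle. In whole heart tissue, fewer cells of a type and less RNA per cell cannot be told apart.

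The libraries held 15416877 to 18264052 counts. Stat3, the deleted gene, was at 99.7, 85.8 and 97.5 CPM (counts scaled to library size and between hearts by the TMM method) in the wild-type hearts titled 1, 3 and 4, and at 52.9, 63.7 and 59.6 CPM in the STAT3cKO hearts titled 3, 6 and 91, so the groups did not overlap. Long transcripts had relatively fewer reads in STAT3cKO hearts. Among 8384 genes tested with a longest transcript in the members' range, 2683 to 11388 nt, the median log2 fold change (STAT3cKO minus wild type throughout) was -0.11 with TMM scaling alone. The members are long, with a median of 5193 nt against 3326 nt for all genes tested. Fold changes below therefore come from an edgeR fit with an offset for each heart that follows transcript length and GC content (the length and GC offset), unless the fit without it is named. In that fit the median of the same 8384 genes was 0.02, the log2 fold change of Stat3 was -0.43 with an SE of 0.09 (edgeR adjusted p = 0.00811), and genes with an adjusted p under 0.05 over all 14484 genes are called lower or higher. The length trend separates the hearts in the same way as genotype does, so the share of a change that belongs to either cannot be told apart.

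**Figure D1:**
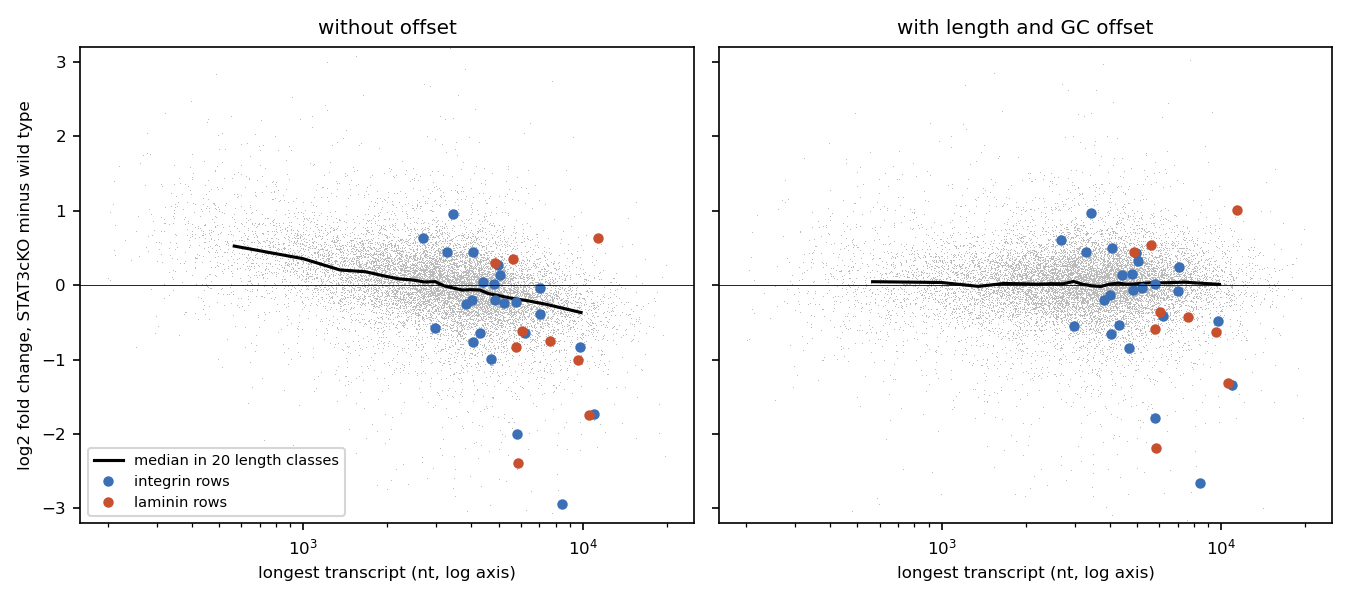
Log2 fold change (STAT3cKO minus wild type) against the length of the longest annotated transcript (nt, log axis) for genes tested (grey points). The fit without the offset is on the left and that with the length and GC offset on the right. Genes without an annotated length or beyond the range of the axes are not drawn. The black line is the median of 20 length classes, which falls with length on the left and stays near 0 on the right, where laminin (red) and integrin (blue) genes still lie on either side of it.

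Of the 34 members tested, 10 were lower and 2 higher in STAT3cKO hearts. Among all genes tested, 7.91% were lower and 10.9% higher. All 12 called members also passed without the offset, a rule that 6.56% of all genes met as lower and 8.28% as higher. The median log2 fold change was -0.39 over the 10 laminin genes tested and -0.07 over the 24 integrin genes, against 0.02 over all genes. Wild-type and STAT3cKO CPM, which carry no offset, were fully separate for 21 of the 34, against 43% of all genes. Of the 21, 16 were lower and 5 higher, against 21.5% of all genes in each direction. With the length and GC trend divided out, 14 members were fully separate as lower and 7 as higher, and the share over all genes was not computed on that scale. Leaving out wild type replicate 4 left 1 member higher, and leaving out STAT3cKO replicate 6 gave 4.

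**Figure D2:**
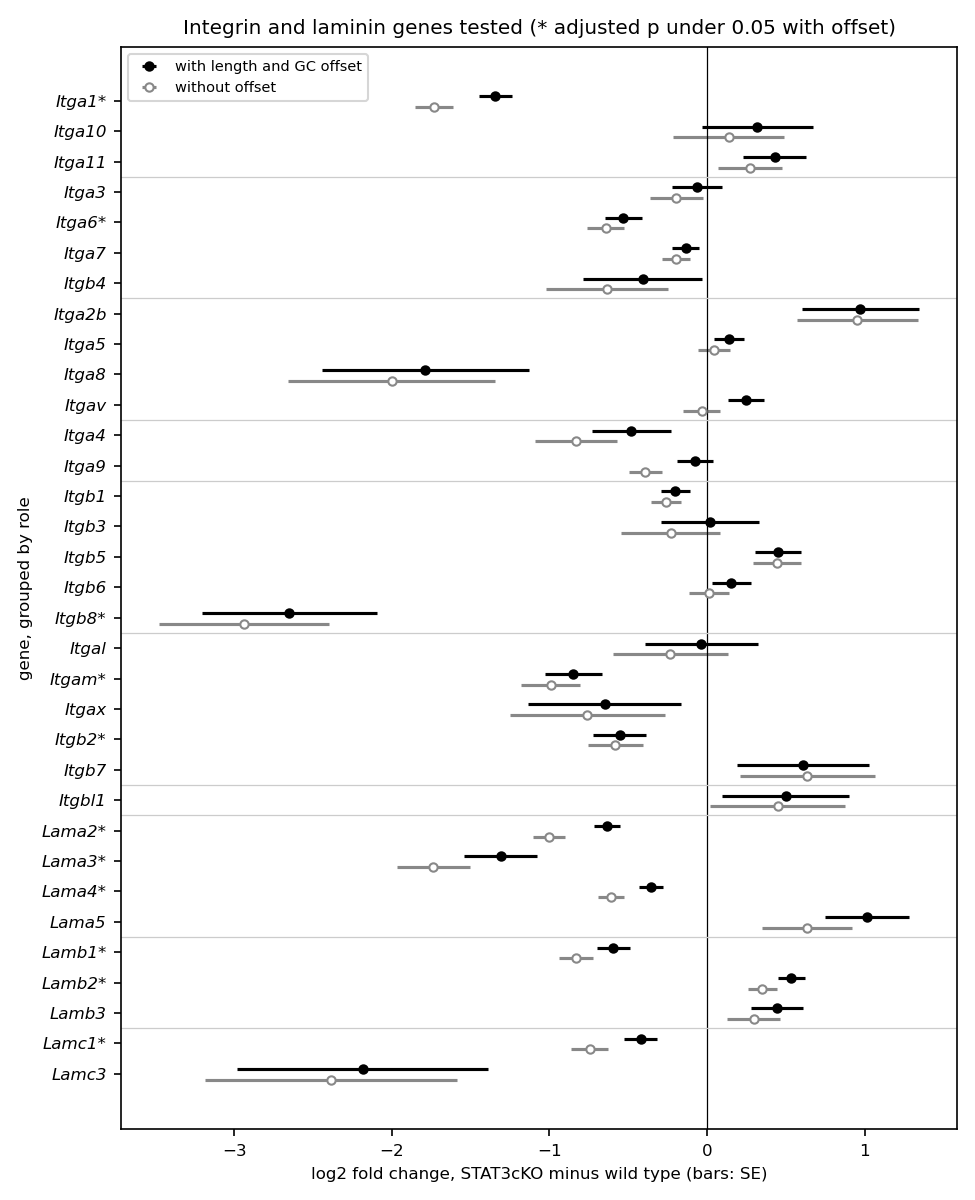
Log2 fold change (STAT3cKO minus wild type) of the members tested and reported, with SE bars, from the fit with the length and GC offset (black) and without it (grey). Lines separate role groups from collagen receptor chains at the top to laminin γ chains at the bottom. The laminin α2, α3, α4, β1 and γ1 genes lie left of 0 while Lamb2 lies right of it in both fits.

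The laminin genes moved in opposite directions by chain. Of the 10 tested, 5 fell (Lama2, Lama3, Lama4, Lamb1 and Lamc1), 2 rose, Lamb2 among them, and 3 did not pass. Lama2, the α2 chain of the muscle basement membrane whose loss causes congenital muscular dystrophy (GRCm38 chromosome 10, 26981285 to 27617191), was at 154, 170 and 181 CPM in wild-type hearts 1, 3 and 4 and 79.0, 93.5 and 79.5 CPM in the STAT3cKO hearts titled 3, 6 and 91. Every STAT3cKO heart lay below every wild-type heart. The log2 fold change of Lama2 was -0.63 ± 0.08 (SE; adjusted p = 0.000444), and the gene also passed without the offset (adjusted p = 7.53e-05).

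Lama4, the α4 chain found around vessels and cardiomyocytes (chromosome 10, 38965515 to 39110188), was at 116, 113 and 115 CPM in wild type and 73.6, 77.6 and 74.2 CPM in STAT3cKO. The spread within each group was small beside the gap between them. Its log2 fold change was -0.36 ± 0.08 (SE; adjusted p = 0.00697), and -0.61 without the offset. Lama3, better known from the epithelial basement membrane, was far less abundant, at 5.25, 7.99 and 6.47 CPM in wild type and 2.05, 1.75 and 2.08 CPM in STAT3cKO. The groups were again apart, and the log2 fold change of Lama3 was -1.31 ± 0.23 (SE; adjusted p = 0.00242).

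Lama5, the α5 chain of mature vessel and epithelial basement membranes (chromosome 2, 180176373 to 180225904), pointed the other way but did not pass. It was at 129, 154 and 114 CPM in wild type and 182, 292 and 142 CPM in STAT3cKO, and STAT3cKO replicate 6 stood well above the other hearts. STAT3cKO replicate 91 lay below wild type replicate 3, so the groups overlapped in CPM. The Lama5 log2 fold change was 1.01 ± 0.27 (SE; adjusted p = 0.0516). Without STAT3cKO replicate 6 it was 0.69 and passed (adjusted p = 0.00195), as it did without STAT3cKO replicate 91 (1.21, adjusted p = 0.0171), and without the offset it was 0.63 (adjusted p = 0.168). Lama1, the α1 chain of early embryonic laminin, had at most 3 counts in any heart and was not tested.

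The β1 and β2 chains moved in opposite directions. Lamb1, the β1 chain (chromosome 12, 31265146 to 31329644), was at 159, 139 and 159 CPM in wild type and 83.2, 99.1 and 74.9 CPM in STAT3cKO, a log2 fold change of -0.59 ± 0.10 (SE; adjusted p = 0.00217). Lamb2, the β2 chain of muscle, synaptic and vessel basement membranes (chromosome 9, 108479847 to 108490530), was at 312, 332 and 295 CPM in wild type and 392, 391 and 415 CPM in STAT3cKO, a log2 fold change of 0.53 ± 0.09 (SE; adjusted p = 0.00161). Neither gene's groups overlapped. The transcripts are of like length, 5784 nt for Lamb1 and 5629 nt for Lamb2, but differ in GC content, at 52.5% and 58.8%. The ratio of Lamb2 to Lamb1 CPM in each heart depends on no scaling between hearts. It was 1.96, 2.39 and 1.85 in wild-type hearts 1, 3 and 4 and 4.72, 3.95 and 5.55 in the STAT3cKO hearts titled 3, 6 and 91. With the length and GC trend divided out the ratio was 1.94 to 2.42 in wild type and 4.02 to 5.38 in STAT3cKO. Since the pair was taken for its opposite calls, a gap between the groups in this ratio is fixed by the choice and is given as a description.

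The rise of Lamb2 changed with the scaling. The Lamb2 log2 fold change was 0.35 without the offset (adjusted p = 0.015) and 0.24 with library size as the only scaling (adjusted p = 0.098), a scaling that moved the median of all genes to -0.11. It was 0.04 (adjusted p = 0.793) when the offset used each gene's median transcript, which for Lamb2 is a 473 nt annotated fragment. Lamb3, the β3 chain of epithelial laminin, was at 7.46, 8.35 and 7.95 CPM in wild type and 8.73, 11.9 and 8.49 CPM in STAT3cKO. It did not pass, at a log2 fold change of 0.44 ± 0.17 (SE; adjusted p = 0.0804).

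Of the γ chains, Lamc1, the common γ1 partner of most laminins (chromosome 1, 153218922 to 153332786), was at 245, 228 and 236 CPM in wild type and 120, 169 and 134 CPM in STAT3cKO. Its log2 fold change was -0.42 ± 0.11 (SE; adjusted p = 0.0156), and -0.75 without the offset. The Lamc1 log2 fold change no longer passed with wild type replicate 1 left out (adjusted p = 0.0674), nor with STAT3cKO replicate 3 left out (adjusted p = 0.0793). Lamc3, the γ3 chain, had 18, 43 and 17 counts in the wild-type hearts against 3, 10 and 0 in the STAT3cKO hearts and did not pass (adjusted p = 0.0832).

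**Figure D3:**
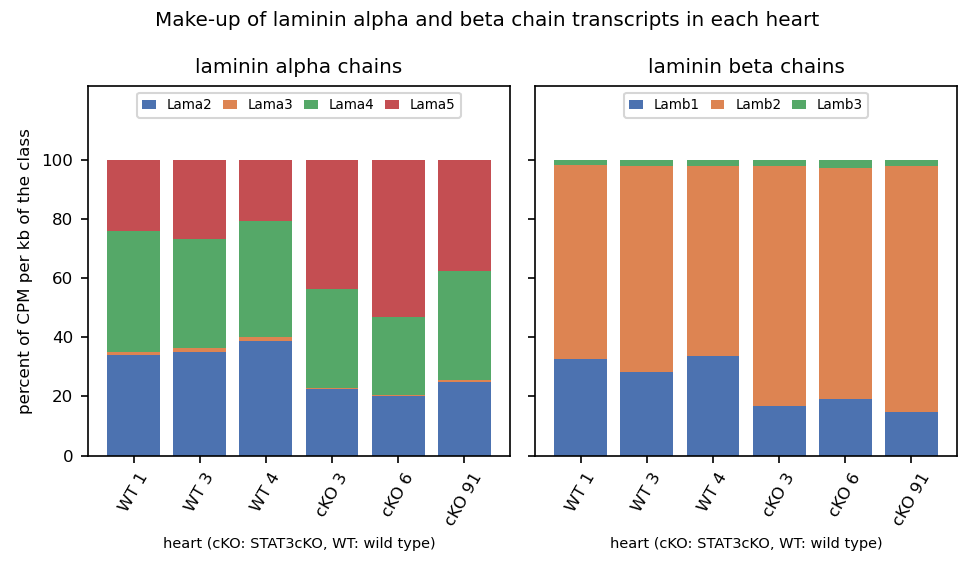
Share of each laminin α and β gene in its chain class in every heart, as percent of the class's CPM per kb of longest transcript (stacked bars, WT wild type, cKO STAT3cKO). Lama5 takes 20.7 to 26.6% of α chain transcripts in wild type and 37.6 to 53.0% in STAT3cKO, and Lamb1 takes 28.4 to 33.7% of β chain transcripts in wild type and 14.6 to 19.2% in STAT3cKO.

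The make-up of laminin transcripts, divided by the length of the longest transcript, is given as a description. No share passed the exact test described below. In wild type Lama4 was 37.0 to 40.7%, Lama2 34.1 to 38.9% and Lama5 20.7 to 26.6% of α chain CPM per kb, so the ranges of Lama4 and Lama2 overlapped and Lama5 came last of the 3 in every heart. In STAT3cKO hearts Lama5 was 37.6 to 53.0%, Lama4 26.5 to 36.9% and Lama2 20.1 to 24.9%. Lama5 came first in every STAT3cKO heart, by a narrow margin over Lama4 in replicate 91. This order depends on the longest annotated transcript, 11388 nt for Lama5, 9614 nt for Lama2 and 6046 nt for Lama4. Their median annotated transcripts are 606, 3061.5 and 2592 nt, and with those lengths Lama5 would come first in wild type too. The Lamb2 share of β chains went from 64.3 to 69.6% in wild type to 78.0 to 83.4% in STAT3cKO. Summed over all laminin genes, the level was 1122 to 1164 CPM in wild type and 943 to 1145 CPM in STAT3cKO, ranges that overlapped through STAT3cKO replicate 6.

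Shares were compared for the 14 integrin and laminin genes that made up at least 5% of their class. For 12 of them the two-sided exact permutation p was 0.1, the smallest that 3 hearts against 3 can give (0.117 after Benjamini-Hochberg adjustment over the 14). This design cannot reach 0.05 for a single value.

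**Figure D4:**
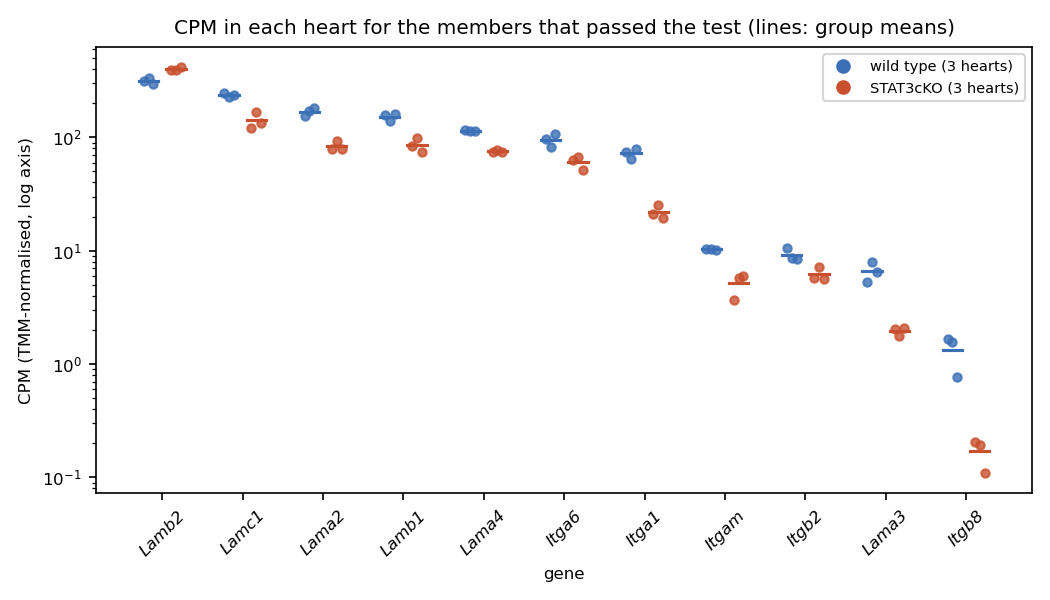
TMM-normalised CPM (log axis) in each of the 3 wild-type (blue) and 3 STAT3cKO (red) hearts for the members that passed the test and are reported, ordered by wild-type mean, with lines at group means. Points of the groups do not overlap for any gene shown, and Lamb2 has the STAT3cKO hearts on top.

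Of the 24 integrin genes tested, 5 fell (Itga1, Itga6, Itgam, Itgb2 and Itgb8) and 19 did not pass. At an unadjusted p under 0.05, 7 were lower and 2 higher, against 15% and 18.3% of all genes. DESeq2 called 6 lower and 1 higher, against 7.74% and 10.5% of all genes. Itga1 encodes the α1 chain, which pairs with β1 to bind collagen IV and collagen I and is known from smooth muscle and capillary endothelium (chromosome 13, 114958079 to 115101964). It was at 74.1, 65.0 and 79.1 CPM in wild type and 21.1, 25.3 and 19.4 CPM in STAT3cKO. No STAT3cKO heart came near the lowest wild-type heart. Its log2 fold change was -1.34 ± 0.11 (SE; adjusted p = 1.25e-05), and -1.73 without the offset.

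The other collagen receptor chains did not pass. Itga11, the α11 chain of fibroblasts, was at 4.17 to 5.01 CPM in wild type and 4.50 to 6.43 CPM in STAT3cKO. Itga10, the α10 chain, was at 2.11 to 5.49 and 2.66 to 5.05 CPM. Itga2, the α2 chain, which lies 26.0 kb from Itga1, had 10 to 16 counts in wild-type hearts against 2 to 6 in STAT3cKO hearts and was not tested.

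Among chains that bind laminin, Itga6 fell and Itga7, the cardiomyocyte chain, did not pass. Itga6, the α6 chain of endothelium and many epithelia (chromosome 2, 71786886 to 71858427), was at 96.1, 82.4 and 106 CPM in wild type and 63.3, 67.3 and 51.7 CPM in STAT3cKO, a log2 fold change of -0.53 ± 0.12 (SE; adjusted p = 0.00953). Its groups did not overlap. Itga7 was at 140, 144 and 141 CPM in wild type and 132, 126 and 113 CPM in STAT3cKO. The difference was small, at a log2 fold change of -0.14 ± 0.09 (SE; adjusted p = 0.298), although every STAT3cKO heart was below every wild-type heart. Itga3, the α3 chain, was at 8.89 to 13.7 and 9.62 to 11.3 CPM, and Itgb4, the β4 partner of α6 in epithelia and Schwann cells, at 1.92 to 4.65 and 1.30 to 2.99 CPM, and neither passed.

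Per kb of longest transcript Itga7 was the most abundant α chain, at 34.0 to 35.8% of the class in wild type and 36.8 to 41.0% in STAT3cKO. Itga6 came next in every heart but STAT3cKO replicate 91, where Itga5 did. By median annotated transcript, 3843 nt for Itga7 and 649.5 nt for Itga9, Itga9 would come before Itga7 in both groups. The share of Itga1 went from 5.89 to 7.02% in wild type to 2.31 to 2.94% in STAT3cKO. The share of Itga6, 21.8% ± 2.55 and 18.0% ± 2.17 (SD, n = 3 hearts each), overlapped between groups.

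The shared β chains were led by Itgb1, the partner of most α chains, at 438, 413 and 455 CPM in wild type and 340, 387 and 365 CPM in STAT3cKO. The groups were apart, but the gene did not pass at a log2 fold change of -0.20 ± 0.09 (SE; adjusted p = 0.140). Itgb5, which pairs with αv to bind vitronectin, was at 86.3, 90.5 and 93.2 CPM in wild type and 104, 105 and 158 CPM in STAT3cKO, highest in STAT3cKO replicate 91. The Itgb5 log2 fold change did not pass at 0.45 ± 0.15 (SE; adjusted p = 0.06), and was 0.24 without STAT3cKO replicate 91 (adjusted p = 0.101). It passed without STAT3cKO replicate 3 (0.56, adjusted p = 0.0330) or STAT3cKO replicate 6 (0.53, adjusted p = 0.0428).

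Itgb8, the β8 chain that activates latent TGF-β (chromosome 12, 119162803 to 119238276), was scarce, with 32, 26 and 14 counts in the wild-type hearts against 3, 3 and 2 in the STAT3cKO hearts. It fell, at a log2 fold change of -2.65 ± 0.56 (SE; adjusted p = 0.00634), and at so few counts the size of that change is loosely fixed. Itgb3, the β3 chain of platelets and angiogenic endothelium, was at 1.92 to 4.65 and 2.27 to 3.39 CPM, and Itgb6, an epithelial chain, at 13.4 to 16.8 and 14.3 to 16.3 CPM. Neither passed. Itgbl1, a secreted protein that resembles β chains and is no receptor, was at 18.5, 25.8 and 16.5 CPM in wild type and 18.7, 19.4 and 44.2 CPM in STAT3cKO, high in STAT3cKO replicate 91 alone among the 6, and did not pass. Itgb1 was 75.0 to 77.0% of β chain CPM per kb in wild type and 63.8 to 72.2% in STAT3cKO, and Itgb5 17.6 to 19.1% and 22.7 to 32.0%.

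Chains that recognise the RGD motif of fibronectin and vitronectin did not pass. Itga5, the main fibronectin receptor chain, was at 55.7, 54.0 and 53.8 CPM in wild type and 56.7, 48.8 and 62.8 CPM in STAT3cKO (log2 fold change 0.14 ± 0.09, SE). Itgav, the αv chain, was at 24.9, 25.4 and 31.3 CPM and 27.0, 24.4 and 28.0 CPM. Itga2b, the platelet chain, was at 0.439 to 1.03 and 1.43 to 1.81 CPM.

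Itga8, the α8 chain of smooth muscle and other contractile stromal cells, was at 7.36, 27.1 and 8.06 CPM in wild type and 3.55, 4.15 and 2.90 CPM in STAT3cKO. Wild type replicate 3 was more than 3 times the other wild-type hearts, and the gene did not pass (log2 fold change -1.79 ± 0.66, SE; adjusted p = 0.139). Without that heart the Itga8 log2 fold change was -0.92 and passed (adjusted p = 0.02). The smooth muscle gene Lmod1 was highest in the same heart, at 6.69, 12.5 and 4.22 CPM in wild type and 1.16, 1.04 and 1.64 CPM in STAT3cKO, and its part in the Itga8 values was not tested.

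Itga4 and Itga9, related α chains that bind fibronectin, VCAM1 and tenascin, passed without the offset and not with it. Itga9 also passed when the offset used each gene's median transcript. Itga9 was at 71.6, 66.6 and 79.7 CPM in wild type and 52.5, 50.4 and 63.1 CPM in STAT3cKO, a log2 fold change of -0.39 without the offset (adjusted p = 0.0184) and -0.08 with it (adjusted p = 0.670). Its longest transcript is 7020 nt. Itga4 was at 5.20, 8.71 and 4.72 CPM and 2.80, 3.83 and 3.78 CPM, with -0.83 without the offset (adjusted p = 0.0322) and -0.48 with it (adjusted p = 0.203). Its longest transcript is 9767 nt.

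Of the leukocyte chains, 2 of 5 tested fell. Itgam, the αM chain of macrophages and neutrophils known as CD11b (chromosome 7, 128062640 to 128118491), was at 10.3, 10.4 and 10.1 CPM in wild type and 3.68, 5.78 and 5.97 CPM in STAT3cKO, a log2 fold change of -0.85 ± 0.18 (SE; adjusted p = 0.00710). Itgb2, its β2 partner (chromosome 10, 77530329 to 77565708), was at 10.7, 8.65 and 8.45 CPM and 5.73, 7.21 and 5.64 CPM, a log2 fold change of -0.55 ± 0.17 (SE; adjusted p = 0.0365). The groups did not overlap for either chain. The Itgb2 log2 fold change no longer passed with wild type replicate 1 (adjusted p = 0.152), 3 (0.0592) or 4 (0.0697) left out, nor with STAT3cKO replicate 3 (0.109) or 91 (0.110) left out. Itgal, the αL chain of lymphocytes, at 1.15 to 3.22 and 1.75 to 2.60 CPM, Itgax, the αX chain of dendritic cells and macrophages, at 0.566 to 1.55 and 0.409 to 0.876 CPM, and Itgb7, a lymphocyte chain, at 0.384 to 1.55 and 1.48 to 1.69 CPM, did not pass. Itgad and Itgae had at most 6 counts in any heart, Itgb2l had none, and all 3 were not tested.

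Promoter sequence is shown for the integrin genes with the largest falls that passed, Itga1 and Itgb8, and for the β chain pair that moved apart. Each run is the stretch of the 250 bases before the RefSeq start site (GRCm38.p6) that lies outside the gene, 5′ to 3′ on the gene's strand, with matches to the 3 motifs described below in capitals.
Itga1, chr13:115101965-115102214, minus strand: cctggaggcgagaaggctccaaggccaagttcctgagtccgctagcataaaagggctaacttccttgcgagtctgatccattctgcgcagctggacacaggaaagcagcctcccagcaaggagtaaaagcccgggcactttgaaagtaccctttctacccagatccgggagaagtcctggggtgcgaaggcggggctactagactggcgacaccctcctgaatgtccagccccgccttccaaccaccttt
Itgb8, chr12:119238277-119238526, minus strand: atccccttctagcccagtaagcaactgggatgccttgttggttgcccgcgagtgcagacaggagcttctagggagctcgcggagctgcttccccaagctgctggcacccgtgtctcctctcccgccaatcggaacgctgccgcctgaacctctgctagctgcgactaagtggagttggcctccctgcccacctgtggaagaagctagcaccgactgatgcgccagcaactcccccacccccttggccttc
Lamb1, chr12:31265043-31265145, plus strand: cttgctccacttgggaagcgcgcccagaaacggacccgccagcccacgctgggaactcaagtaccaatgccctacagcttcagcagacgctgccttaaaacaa
Lamb2, chr9:108479612-108479846, plus strand: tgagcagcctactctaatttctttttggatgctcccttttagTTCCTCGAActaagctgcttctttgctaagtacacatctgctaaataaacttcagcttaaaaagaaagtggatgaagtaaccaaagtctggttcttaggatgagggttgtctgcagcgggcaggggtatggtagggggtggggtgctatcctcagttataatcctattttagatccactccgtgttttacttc

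The motifs searched on both strands were TTCNNNGAA, the palindrome to which STAT dimers bind, the GC box GGGCGG and the TATA box TATAAA. Over RefSeq windows of 300 bases (250 before and 50 after the start) 8.3% of 32851 windows held the STAT motif, 35.66% the GC box and 13.62% the TATA box. Of 28 windows belonging to 25 members, 2 held the STAT motif, those of Lamb2 and Itga10, 13 held the GC box, and TATAAA was found in none. In the stretches printed, the only match is the STAT motif of Lamb2. A match is a description of the letters and not evidence of binding.

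Markers of the cells that a heart holds were counted in the same fit, and the lists went in different directions. For comparison with each list, 7.91% of all genes were lower and 10.9% higher. Without the offset these shares were 12.6% and 13.2%. Of 12 macrophage markers 8 fell, and their summed level was 387 to 472 CPM in wild type and 236 to 346 CPM in STAT3cKO. With wild type replicate 1 left out 2 of them fell, with wild type replicate 3 left out 5, and with STAT3cKO replicate 3 left out 3. Cd163, a scavenger receptor of resident macrophages, had a log2 fold change of -1.56 (adjusted p = 7.44e-05) and Csf1r, the receptor that maintains them, one of -0.95 (adjusted p = 0.000522). Of 6 neutrophil markers 3 were tested and 1, S100a8, rose, though not when any 1 heart was left out. Their sum was 1.92 to 7.21 CPM in wild type and 7.64 to 12.4 CPM in STAT3cKO. The part of these cells in the Itgam and Itgb2 values was not tested.

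Of 12 smooth muscle and pericyte markers 5 fell (3 without STAT3cKO replicate 91 and 8 without the offset), with summed levels of 1686 to 1793 CPM in wild type and 946 to 1234 CPM in STAT3cKO. Acta2, smooth muscle actin, had a log2 fold change of -2.16 (adjusted p = 5.19e-07), and Myh11, Lmod1, Mylk and Notch3 were the others. Tagln (-1.58) and Cnn1 (-2.70) did not pass. The pericyte markers Pdgfrb, Rgs5, Kcnj8, Abcc9 and Cspg4, at log2 fold changes of -0.07 (Pdgfrb) to -0.36 (Abcc9), did not pass either. Of 11 endothelial markers tested 6 fell, with sums over all 12 of 1396 to 1613 CPM in wild type and 949 to 1055 CPM in STAT3cKO. Cdh5, the endothelial cadherin, had a log2 fold change of -0.99 (adjusted p = 0.000111), and Pecam1, an endothelial adhesion molecule, one of -0.64 (adjusted p = 0.00114). Endothelial markers that did not pass included Emcn (log2 fold change 0.18), Egfl7 (0.10) and Robo4 (0.08), which lay on the other side of 0. Of the laminin chains described above for vessels, Lama4 fell, Lamb2 rose (log2 fold change 0.53) and Lama5 was at 1.01 and did not pass. The part of these cells in the values of Itga1, Itga6, Lama4, Lama5, Lamb1, Lamb2 and Lamc1 was not tested.

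Of 10 fibroblast markers 1 fell, Col1a2, and 1 rose, Dcn (2 rose without STAT3cKO replicate 3 or 91), with sums of 2789 to 4131 CPM in wild type and 3617 to 4416 CPM in STAT3cKO. Of 10 cardiomyocyte markers 3 rose, Tnnt2, Ttn and Myl2 (Myl2 not without wild type replicate 1), with sums of 55299 to 62097 and 62991 to 74113 CPM. Ttn, the giant sarcomere protein, had a log2 fold change of 0.64 with the offset, 0.04 without it, where it did not pass, and -0.07 with library size alone. Of 6 Schwann cell markers tested 3 fell (5 without STAT3cKO replicate 6), with sums of 24.4 to 37.9 and 13.4 to 20.4 CPM.

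Upk3b fell among 5 mesothelial markers, but no longer passed when any wild-type heart or STAT3cKO replicate 3 was left out, and 2 fell without STAT3cKO replicate 91. The mesothelial sums were 24.1 to 28.7 and 11.2 to 23.0 CPM. The 3 lymphocyte markers tested did not pass (1 rose without STAT3cKO replicate 6), with sums of 2.74 to 5.55 and 5.19 to 9.36 CPM. The 6 platelet markers had too few reads to test, at sums of 0.179 to 1.65 and 0.195 to 1.23 CPM, and Ppbp and Gp1bb had no count in any heart.

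Of 18 partners of laminin in the basement membrane 7 fell, Agrn (agrin) rose and 10 did not pass. Over all genes 7.91% fell and 10.9% rose. The median log2 fold change of the partners was -0.52, against 0.02 for all genes. Col4a1, a chain of the collagen IV network, was at 613, 604 and 683 CPM in wild type and 296, 274 and 300 CPM in STAT3cKO, a log2 fold change of -0.88 ± 0.10 (SE; adjusted p = 0.000152). Sparc, which binds collagen IV, had a log2 fold change of -0.90, Nid2, a nidogen that links laminin to collagen IV, one of -0.90, and Col18a1, the source of endostatin, one of -1.61. The groups did not overlap for any of these 4. Without the offset 14 of the 18 fell, against 12.6% of all genes, and the Agrn call was lost (log2 fold change 0.08, adjusted p = 0.521).

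Laminin receptors other than integrins went both ways. Of 14 measured 5 fell and 3 rose, against 7.91% and 10.9% of all genes, with a median log2 fold change of 0.01. The 5 that fell became 3 when wild type replicate 3 or 4 or STAT3cKO replicate 3 or 91 was left out. Dag1, dystroglycan, which binds Lama2 laminin outside the cardiomyocyte, was at 374, 380 and 381 CPM in wild type and 221, 243 and 227 CPM in STAT3cKO, a log2 fold change of -0.48 ± 0.08 (SE; adjusted p = 0.00219). Utrn, utrophin, had a log2 fold change of -0.61 and Sgcd, δ-sarcoglycan of the dystrophin complex, one of -0.58. Rpsa, a ribosomal protein also named as a laminin receptor, had one of 0.44.

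Of 35 integrin adaptors tested 6 fell and 4 rose, against 7.91% and 10.9% of all genes, with a median of 0.01. With wild type replicate 1 left out 2 fell, and 3 fell with either wild type replicate 4 or STAT3cKO replicate 3 left out. With no offset 12 fell, against 12.6% of all genes. Pxn, the focal adhesion scaffold paxillin, was at 47.3, 56.6 and 45.9 CPM in wild type and 77.5, 89.1 and 73.3 CPM in STAT3cKO, a log2 fold change of 0.73 ± 0.11 (SE; adjusted p = 0.000966). Tns2, a tensin (0.68), and Itgb1bp1, an inhibitor of β1 integrin activation (0.44), also rose, while Vcl, vinculin, fell (-0.37). Of 16 integrin ligands tested 3 fell, against 7.91% of all genes. These were Fn1, fibronectin (-0.80), F11r, an adhesion molecule of tight junctions (-0.54), and Tgfb1 (-0.49). The Tgfb1 call did not hold with wild type replicate 1 left out (adjusted p = 0.0585), and 1 ligand rose without STAT3cKO replicate 3. The median over the ligands was -0.24.

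With an offset for length alone, 10 members fell and 4 rose, the Lama5 log2 fold change (1.02, adjusted p = 0.0373) and the Itgb5 log2 fold change (0.46, adjusted p = 0.0424) being added. For 6 of the 12 called members, Itga6, Itgam, Itgb2, Lama4, Lamb1 and Lamb2, no other RefSeq gene overlaps the locus. The other 6 share theirs with a pseudogene, a long non-coding RNA or, for Itga1, the coding gene Pelo, and the deposited counts do not show how shared reads were assigned.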

How the data were processed

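RNA was extracted with Trizol from 3 STAT3cKO and 3 wild-type hearts, and RNA with an integrity number over 8 went into Illumina libraries, per the labels' protocols. HISAT2 and GRCm38 are named in the submitters' processing notes; for the HISAT2 version, counting program, annotation and strand setting, the sources used here give nothing. The authors deposited raw read counts per gene symbol, 46095 genes, not normalised.

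Genes were kept by filterByExpr (minimum count 10; 14484 genes) and compared with edgeR 4.0.16 (TMM, robust quasi-likelihood F test, R 4.3.3, Benjamini-Hochberg over all genes). For each heart a trend of log2 CPM deviations on log2 length and GC of the longest GENCODE M21 transcript (splines, 5 degrees of freedom) was entered as an offset; 93.8% of genes tested had a length, and the rest received the median deviation of genes without one. Each SE was taken as |log2 fold change| over the root of F. CPM values are TMM-normalised without the offset. The fit was also run on simulated counts with a length slope tied to genotype and no GC trend. That setting cannot show whether the offset is right where length trend and genotype separate the hearts alike.

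Alternatives were no offset, length alone, median transcript length, DESeq2 size factors, library size alone, no filter, a stricter filter (1 CPM in 3 libraries and a mean count of 50), DESeq2 1.42.0, no robust estimation and leaving out each heart. Members that passed with and without the offset are given in every heart. Of each list up to 4 genes with the smallest adjusted p were taken. Other list genes named were chosen after their values were seen (Agrn, Ttn, Emcn, Egfl7, Robo4, Upk3b, Tnnt2, Myl2, Ppbp, Gp1bb, Myh11, Tagln, Cnn1, Pdgfrb, Rgs5, Kcnj8, Abcc9 and Cspg4). The members and lists were chosen with earlier results of these data known. Coordinates and promoters are from RefSeq for GRCm38.p6; all 39 symbols matched. Results of 1 member are included in counts over the members but not reported here.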

Additional observations from a re-analysis of the deposited data

How the results depend on the processing

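The 10 members called lower were 8 to 11 when 1 heart was left out and 9 to 15 under the other alternatives. Itga1, Itga6, Itgam, Itgb8, Lama2, Lama3, Lama4 and Lamb1 passed in each alternative in which they were tested, and no called member changed direction. The 2 called higher became 4 with the length-only offset, with no low-count filter and with DESeq2, 1 with median transcript length, 0 with library size alone (where the median of all genes was -0.11), and 1 to 4 without 1 heart. Genes of the pathway lists called lower went from 21 to 34 without the offset, 34 with DESeq2 size factors and 38 with library size alone, and those called higher from 8 to 5, 5 and 4. Cell type markers called lower went from 24 to 15 to 26 without 1 heart. Those called higher went from 5 to 9 with no filter, 8 with DESeq2 and 3 to 5 without 1 heart. Ttn reversed with library size alone (-0.073). Over all genes the split of calls was 1585 higher and 1145 lower, 1918 and 1820 without the offset and 1109 and 2714 with library size alone. The cause of these differences was not tested. Shares whose groups do not overlap numbered 11 to 13 under each alternative. Members at a few counts per heart (Itgb8, Lamc3) are limited by depth. No paired analysis was made because the labels give no pairing of hearts between the groups.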
